A study of Mus musculus with 11 samples.

Results

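The effect of the db/db genotype on isolated mouse glomeruli was measured over 11 RNA-seq libraries, 7 from db/db mice and 4 from db/m littermates, which are all the libraries analysed here. The db/db libraries pooled both treatment arms: 4 came from mice given 5% DMSO by gavage and 3 from mice given puerarin, an isoflavone glycoside of kudzu root, at 20 mg per kg body weight per day in 5% DMSO. The db/m mice received 5% DMSO. The labels describe male mice on the BKS background, bought at 8 weeks, with gavage from 10 weeks of age for 6 weeks, although their strain field names C57BL/6J. No group of untreated mice and no puerarin-treated db/m group was among these libraries, and the labels do not say whether a library came from 1 animal or from several.

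The db allele is a change in Lepr, the leptin receptor gene, that removes the long signalling form of the receptor. Homozygotes eat to excess, become obese and develop a type 2 diabetes in which the glomerulus, the filtering unit of the kidney, enlarges and leaks albumin. A glomerulus holds podocytes, which form the outer filter layer, fenestrated endothelial cells, contractile mesangial cells and the parietal cells of its capsule. Isolation carries over pieces of tubule and passing immune cells. In such bulk RNA, fewer cells of a type and less RNA per cell cannot be told apart.

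Titles of 3 db/db and 2 db/m libraries carry an S-number, those of 4 db/db and 2 db/m libraries a group tag with a plain number, and this name form was a term in every fit unless stated. The labels do not say what it stands for. Total counts ran from 35369703 to 44244460 per library. Some libraries stood apart. In db/db puerarin 2 and 3 the X-inactivation RNA Xist reached 528 and 819 CPM (counts divided by the library total, on a fixed common scale), where the other libraries held 0.519 to 6.47 CPM. The Y-linked gene Ddx3y had 3.06 and 0.909 CPM in these 2 libraries and 50.3 to 85.2 CPM in the rest. Both libraries go against the labels, which describe males, so genes of the X and Y chromosomes were left out of rankings. The db/m libraries S184 and S185 were low in AA465934, at 0.508 and 0.633 CPM against 15.6 to 26.4 CPM in the other 9, and in Zbtb16, at 6.7 and 7.64 CPM against 27.9 to 89.8 CPM. Markers of macrophages were high in db/db vehicle 1, where C1qa was at 93.3 CPM against 0.988 to 22.7 CPM elsewhere. Tubule markers varied within both genotypes: Umod ran from 472 to 3562 CPM in db/db and from 892 to 3548 CPM in db/m.

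The glomerular label was checked on the podocyte gene Nphs1 (nephrin), which was abundant in every library, at 1178 to 1567 CPM in db/db and 1209 to 1500 CPM in db/m. The endothelial gene Pecam1 lay at 1016 to 1850 CPM in db/db and 1108 to 1826 CPM in db/m. Levels of these defining genes overlapped between the genotypes. The tubule gene Umod was above Nphs1 in every library except db/db puerarin S144 and db/m S185. Nphs1 and Pecam1 therefore do not show how much tubule RNA was carried over.

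Of 13734 genes, 61 (0.444%) passed the test of db/db against db/m, edgeR's quasi-likelihood test at a Benjamini-Hochberg adjusted p under 0.05 over all genes. Of these, 38 (0.277% of genes tested) were higher and 23 (0.167%) lower in db/db. The lower genes included the Wnt ligand Wnt4, the secreted Wnt regulator Dkk3, the forkhead factors Foxc2 and Foxd1, the melanocortin receptor Mc4r and the organic anion transporter Slc22a7. The higher genes included the endothelin receptor Ednrb, the vasodilator peptide gene Adm, the collagens Col8a1 and Col12a1, the metallothionein Mt2 and the neuropeptide receptor Qrfpr. Log2 fold changes ran from -2.77 (Slc22a7) to 4.37 (Qrfpr), with a median size of 0.98, and 30 of the 61 changed by at least 1 on the log2 scale. The 61 genes were chosen on these same libraries, which favours separated groups, and in 55 of them no db/db library overlapped with a db/m library. Over all genes 329 (2.4%) were separated in this way, 169 (1.23%) with db/db higher and 160 (1.16%) with db/db lower. At an unadjusted p under 0.05 there were 1689 genes (12.3%), 849 higher and 840 lower.

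**Figure D1:**
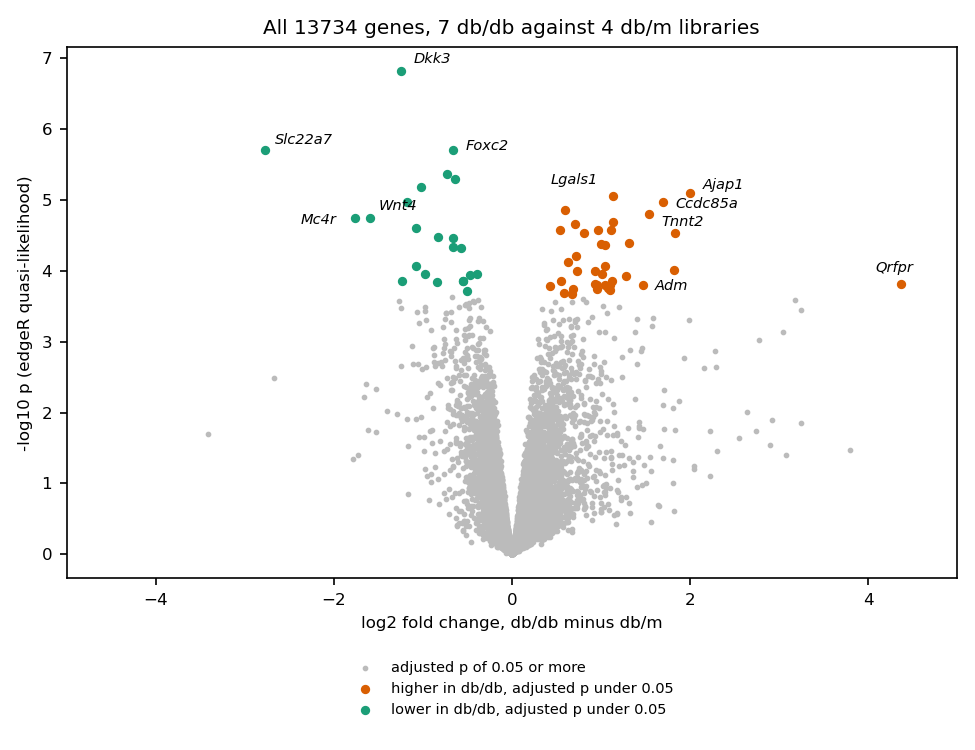
Log2 fold change of db/db over db/m (x axis) against -log10 of the edgeR p (y axis) for each gene. Orange and green points are the 38 higher and 23 lower genes that passed, and 1 gene that did not pass lies outside the x axis.

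The count of 61 rested on few controls. Without db/m S185 or without db/m 2 it was 3, and without db/m S184 or without db/m 3 it was 19. Without both db/m S184 and S185 it was 0 (1245 at an unadjusted p under 0.05, by edgeR). That fit has no S-number db/m library, so its genotype effect comes from the group-tag libraries. Without db/db puerarin 2 and 3 the count was 31 (0.226%), of which 24 were among the 61. Without db/db vehicle 1, the library high in macrophage markers, 134 genes passed. Leaving out 1 other db/db library gave 25 (without vehicle S152), 26 (S153), 31 (puerarin S144 or puerarin 3), 40 (puerarin 2) or 83 (vehicle 3) genes. Dkk3 and Slc22a7 were the genes that passed whichever single library was left out.

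Genes of the Wnt pathway, which patterns the nephron and is known for its part in podocyte and tubule injury, included the gene with the smallest p. Dkk3, a secreted Dickkopf protein (chr7:112116018-112159057 in mm10, minus strand), was at 13.2, 11.5, 12.7 and 13.7 CPM in db/m S184, S185, 2 and 3, and at 4.44 to 6.77 CPM (median 5.24) in the 7 db/db libraries. Every db/db library lay far below every db/m library, and the log2 fold change was -1.24 ± 0.11 (SE), 2.37-fold lower, with an edgeR adjusted p of 0.00207. Wnt4, a ligand needed for the mesenchyme of the embryonic kidney to form tubules (chr4:137277634-137299501, plus strand), was at 9.75, 12.3, 8.84 and 7.71 CPM in the same db/m libraries and at 2.09 to 5.13 CPM (median 3.09) in db/db. It fell 3.02-fold (log2 fold change -1.59 ± 0.22, edgeR adjusted p = 0.0176), and the groups did not overlap. Over the 31 measured genes of a Wnt list, 2 fell and 0 rose (6.45% against 0.444% of all genes), 22 had negative estimates and the median log2 fold change was -0.11, beside 0.01 over all genes. This list and those below were chosen with earlier results of these data known. Their shares of passing genes stand beside the 0.444% of all genes, are descriptions only and do not test a pathway or cell type. The mean level of the Wnt list lay between -0.18 and 0.06 in db/db and between 0.06 and 0.17 in db/m on a log2 scale centred over the libraries. Tpbg, a membrane glycoprotein that modulates Wnt signalling, fell 2.1-fold (edgeR adjusted p = 0.0181), from 6.79 to 9.81 CPM in db/m to 2.66 to 5.41 CPM in db/db, and it shares exon positions with a transcript of the other strand.

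The transcription factors Foxc2, Foxd1 and Sox8 fell. The gene Foxc2, a forkhead factor expressed in podocytes (chr8:121116170-121118894, plus strand), averaged 160 ± 25.4 CPM (SD, n = 4) in db/m, with its lowest value of 128 CPM in db/m 3, and lay at 89 to 114 CPM (median 97.1) in db/db. The groups were apart, and the gene fell 1.58-fold (log2 fold change -0.66 ± 0.07, edgeR adjusted p = 0.00911). Foxd1, the forkhead factor of the renal stroma that podocytes also express, fell 1.41-fold (log2 fold change -0.50 ± 0.09, edgeR adjusted p = 0.0445), from 93.7 to 109 CPM in db/m to 58.3 to 83.7 CPM in db/db. It did not pass when any 1 library was left out. Sox8, an SRY-box factor, was at 5.09 to 7.29 CPM in db/m and 1.98 to 4.05 CPM in db/db, a 1.97-fold fall (edgeR adjusted p = 0.0388). In 4 of 37 podocyte genes every db/db library lay below every db/m library, beside 1.16% of all genes. Foxc2 was the 1 of these 37 genes that passed (2.7%, beside 0.444% of all genes). Of the 37, 26 had negative estimates, and the list's median was -0.13. Among those that did not pass, Foxc1 (the paralogue of Foxc2) was at 64.4 to 101 CPM in db/db and 118 to 132 CPM in db/m (log2 fold change -0.52, edgeR adjusted p = 0.0552), and Lmx1b, a podocyte factor of the nail-patella syndrome, was at 16.5 to 28.2 and 28.9 to 37.8 CPM (-0.50, adjusted p = 0.0944). The mean level of the podocyte list spanned -0.34 to 0.22 over the db/db libraries and -0.08 to 0.22 over db/m.

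**Figure D2:**
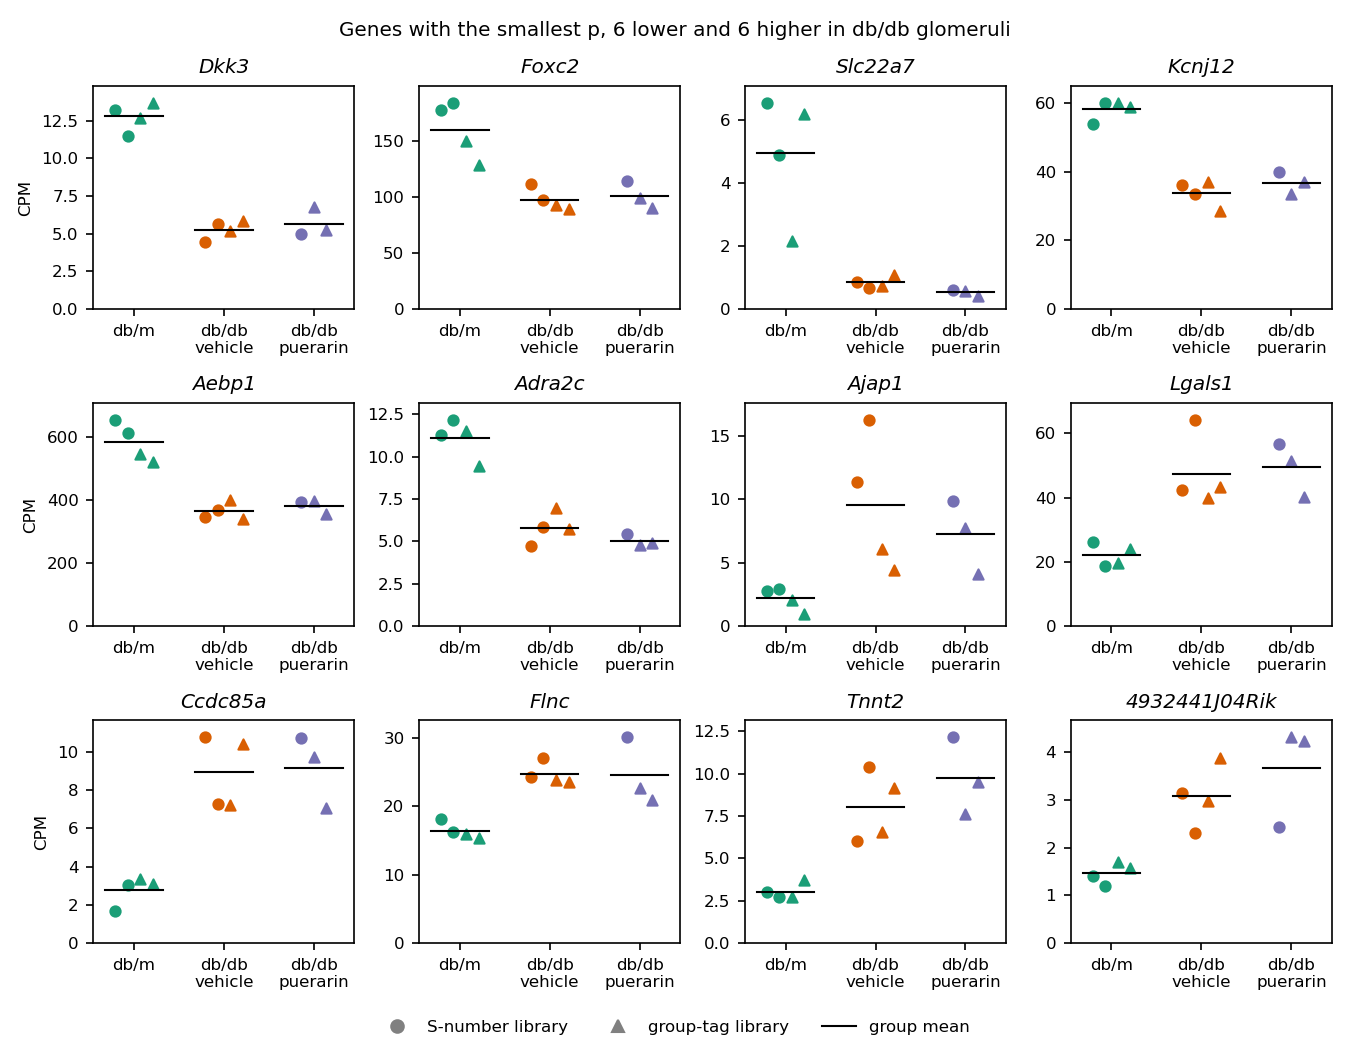
CPM (y axes, from 0) of the 6 lower and 6 higher autosomal genes with the smallest p in each library, by group. Circles are S-number and triangles group-tag libraries, and bars are group means. In none of the 12 panels does a db/db library overlap with a db/m library, and the genes were chosen for that difference.

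Several membrane receptors and channels changed. Mc4r, the melanocortin receptor that controls feeding in the hypothalamus, where leptin acts upstream of its ligand (chr18:66857704-66860487, minus strand), was at 5.28, 11, 5.63 and 5.45 CPM in db/m S184, S185, 2 and 3 and at 0.963 to 2.64 CPM (median 2.05) in db/db. It fell 3.4-fold (log2 fold change -1.77 ± 0.25, edgeR adjusted p = 0.0176). Adra2c, an adrenergic receptor that couples to inhibitory G proteins, fell 2.03-fold, from 9.43 to 12.2 CPM to 4.72 to 6.98 CPM (edgeR adjusted p = 0.0149). Kcnj12, an inward-rectifier potassium channel, fell 1.66-fold, from 53.8 to 60.1 CPM to 28.6 to 40 CPM (adjusted p = 0.0139). It was the 1 passing gene among 19 potassium channels (5.26%, beside 0.444% of all genes). Cacna2d2, an auxiliary subunit of voltage-gated calcium channels, fell 2.26-fold, from 33.7 to 46.7 CPM to 14.7 to 25.5 CPM (adjusted p = 0.0149).

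In the other direction, Qrfpr, the receptor of the hypothalamic RFamide peptide QRFP (chr3:36179425-36222275, minus strand), rose 20.6-fold, the largest change among the 61 genes. It was at 0.229, 0.542, 0.445 and 0.249 CPM in db/m S184, S185, 2 and 3, and in db/db at 4.2, 10.6, 1.22 and 8.53 CPM in vehicle S153, S152, 1 and 3 and at 14.8, 12.3 and 1.66 CPM in puerarin S144, 2 and 3. Every db/db library was above every db/m library, the db/db values ran from 1.22 to 14.8 CPM, and the log2 fold change of 4.37 had an SE of 0.78 (edgeR adjusted p = 0.041). Qpct, the enzyme that forms the pyroglutamate end of peptides such as QRFP, rose 1.45-fold (adjusted p = 0.0181), from 12.4 to 16.9 CPM to 17.3 to 25.2 CPM. P2rx1, an ATP-gated channel of vascular smooth muscle, rose 1.94-fold (adjusted p = 0.041). The X-linked Gabra3, a subunit of the GABA-A receptor, was at 0.667 to 0.87 CPM in db/m and 1.86 to 3.78 CPM in db/db (adjusted p = 0.0181), and it passed without puerarin 2 and 3 as well.

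Genes with known actions on vessels were among those that rose. Ednrb, the endothelin B receptor of endothelial cells (chr14:103814614-103844476, minus strand), was at 89.8, 116, 62.3 and 59.1 CPM in db/m S184, S185, 2 and 3 and at 92.3 to 238 CPM (median 154) in db/db. Its groups overlapped because db/m S185 lay above db/db vehicle 3 and puerarin 2, and it passed as 2.07-fold higher within name forms (log2 fold change 1.05 ± 0.16, edgeR adjusted p = 0.0217). Adm encodes adrenomedullin, a vasodilator peptide. Its level was 22.8, 28, 28 and 27.9 CPM in db/m S184, S185, 2 and 3, 69.5, 69, 32.6 and 61 CPM in db/db vehicle S152, S153, 1 and 3, and 93.2, 95.5 and 96.2 CPM in db/db puerarin S144, 2 and 3. All 7 db/db values lay above db/m (log2 fold change 1.47 ± 0.26, edgeR adjusted p = 0.041), and the 3 puerarin values were the highest. Gpihbp1, the endothelial protein that carries lipoprotein lipase to the capillary surface, rose 2.15-fold (adjusted p = 0.041), from 36.7 to 58.8 CPM in db/m to 71.4 to 149 CPM in db/db. Of 31 glomerular endothelial genes these 2, Ednrb and Gpihbp1, rose and 0 fell (6.45%), while the list's median was -0.01 and its mean level spanned -0.52 to 0.41 over the db/db libraries and -0.32 to 0.28 over db/m. Of 34 angiogenic and endothelin genes Ednrb and Adm rose (5.88%, beside 0.444% of all genes), and the median was 0.01.

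Matrix genes moved both ways. Col8a1, a short-chain network collagen of vessels, rose 1.92-fold (edgeR adjusted p = 0.0386), with db/m values of 9.88 to 15.9 CPM and db/db values of 15.7 to 36.9 CPM, where db/m S185 just exceeded db/db vehicle 3. Col12a1, a collagen that decorates fibrils, rose 2.12-fold (adjusted p = 0.0433), from 20.3 to 27.6 CPM to 31.7 to 80.2 CPM. Ctsk, the collagen-degrading cathepsin K, rose 1.67-fold (adjusted p = 0.0386). Aebp1, a secreted collagen-binding protein (chr11:5861865-5872248, plus strand), fell 1.56-fold (log2 fold change -0.64 ± 0.08, adjusted p = 0.0139), from 519 to 655 CPM to 340 to 399 CPM, with no overlap. Ltbp4, which tethers latent TGF-beta to elastic fibres, fell 1.38-fold (adjusted p = 0.0388). It was the 1 passing gene of 31 TGF-beta and BMP genes (3.23%, beside 0.444% of all genes). Of 51 matrix genes 2 rose and 1 fell (5.88%), with a median of 0.07.

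Genes of the cytoskeleton and of cell junctions moved both ways. Ajap1, a membrane protein of adherens junctions (chr4:153373220-153482830, minus strand), was at 2.79, 2.94, 2.05 and 0.97 CPM in db/m S184, S185, 2 and 3 and at 4.13 to 16.3 CPM (median 7.76) in db/db. It rose 4.01-fold (log2 fold change 2.0 ± 0.26, edgeR adjusted p = 0.0149), and the S-number libraries were the higher in both genotypes. Lgals1, the secreted lectin galectin-1, rose 2.2-fold, from 18.6 to 26.1 CPM to 39.9 to 64.3 CPM (adjusted p = 0.0149). Flnc, an actin cross-linker of muscle, rose 1.52-fold (adjusted p = 0.0172), and Tnnt2, the troponin T of heart muscle, rose 2.9-fold, from 2.69 to 3.71 CPM to 6.02 to 12.2 CPM (adjusted p = 0.0176). Of 41 actin and adhesion genes 2 rose and 0 fell (4.88%), with a median of 0.09. Ccdc85a, a coiled-coil protein, rose 3.25-fold, from 1.65 to 3.33 CPM to 7.04 to 10.8 CPM (adjusted p = 0.0149). Plxnc1, a semaphorin receptor, rose 1.65-fold (adjusted p = 0.0278). Sptb, the beta spectrin of the membrane skeleton, fell 1.58-fold (adjusted p = 0.0222), and Arvcf, a catenin of cell junctions, fell 1.46-fold (adjusted p = 0.041).

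Of the lists written for stress, 0 of 23 immediate early and stress genes and 0 of 27 ER stress and amino acid response genes passed. Single genes known to be induced by stress did. Mt2, a metallothionein that binds zinc and copper, was at 26.9, 13.7, 29.6 and 30.9 CPM in db/m S184, S185, 2 and 3 and at 35.7 to 75.3 CPM (median 45.7) in db/db, 2.06-fold higher with no overlap (log2 fold change 1.05 ± 0.19, edgeR adjusted p = 0.041). Its neighbour Mt1 did not pass, with 40.1 to 90.1 CPM in db/m and 89.5 to 182 CPM in db/db (log2 fold change 0.72, adjusted p = 0.14). Nupr1, a small nuclear protein induced by cell stress, was at 133, 126, 159 and 161 CPM in db/m S184, S185, 2 and 3 and at 238 to 394 CPM (median 264) in db/db, 2.01-fold higher (adjusted p = 0.0217). Emp1, an epithelial membrane protein, rose 2.07-fold (adjusted p = 0.036), from 63.7 to 107 CPM to 136 to 238 CPM. Cdkn2b, the cell-cycle inhibitor p15, rose 2.17-fold from 0.617 to 1.04 CPM to 1.44 to 2.85 CPM (adjusted p = 0.041), and Cdkn1a (p21) was at 37.9 to 88.3 CPM in db/m and 52.9 to 133 CPM in db/db without passing (adjusted p = 0.0648). Mt2 was the 1 passing gene among 31 antioxidant and metallothionein genes (3.23%) and among 20 glucocorticoid response genes (5%). Cdkn2b was the 1 among 21 p53 and arrest genes (4.76%), a list with 16 positive estimates and a median of 0.17. Of all genes 0.444% passed.

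The RefSeq promoter table (GRCm38.p6) held 47 of the 61 genes, and the 250 bases before the start of transcription were searched on both strands for 3 motifs. They were the STAT motif TTCNNNGAA, since leptin receptors signal through STAT3, the metal-response cores TGCACNC and TGCGCNC, through which metallothionein genes are induced, and the forkhead motif GTAAACA. The windows below are those of Mt2, with its metal-response cores in capitals, and of Nupr1 and Emp1, with the STAT motif in capitals. They are at chr8:94172368-94172617 (plus strand), chr7:126625471-126625720 (minus strand) and chr6:135362681-135362930 (plus strand), each written 5′ to 3′ along the gene.
Mt2: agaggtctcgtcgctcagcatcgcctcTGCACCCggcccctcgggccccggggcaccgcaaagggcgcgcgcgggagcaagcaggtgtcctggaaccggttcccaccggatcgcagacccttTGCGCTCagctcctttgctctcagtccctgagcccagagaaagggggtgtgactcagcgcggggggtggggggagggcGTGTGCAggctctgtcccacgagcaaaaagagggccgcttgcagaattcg
Nupr1: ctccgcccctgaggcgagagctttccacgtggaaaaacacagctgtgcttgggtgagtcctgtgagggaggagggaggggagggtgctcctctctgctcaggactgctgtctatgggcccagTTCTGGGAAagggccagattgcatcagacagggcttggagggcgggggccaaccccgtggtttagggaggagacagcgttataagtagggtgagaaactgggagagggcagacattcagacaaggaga
Emp1: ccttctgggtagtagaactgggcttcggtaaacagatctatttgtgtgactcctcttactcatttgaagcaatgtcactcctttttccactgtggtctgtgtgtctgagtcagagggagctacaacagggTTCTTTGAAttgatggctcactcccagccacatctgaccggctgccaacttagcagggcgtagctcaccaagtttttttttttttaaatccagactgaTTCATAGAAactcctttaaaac
The Mt2 window held 3 metal-response cores, beginning between 223 and 50 bases before its end, the Nupr1 window 1 STAT motif and the Emp1 window 2. A STAT motif was found in 3 of the 47 windows (6.38%), the third being that of Ccdc85a, and in 8.13% of 27025 genes with a window. A metal-response core was found in 14 of 47 (29.8%) and in 23.8% of all, and the forkhead motif in 1 of 47 (2.13%), that of Emp1, and in 3.54% of all. A match in such a window is a description of its letters only.

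Transporter and metabolic genes showed the lowest fold change among the 61. Slc22a7, the organic anion transporter OAT2 (chr17:46432184-46438477, minus strand), was at 6.55, 4.88, 2.15 and 6.19 CPM in db/m S184, S185, 2 and 3, at 0.674 to 1.09 CPM in db/db vehicle and at 0.415 to 0.597 CPM in db/db puerarin. It fell 6.83-fold (log2 fold change -2.77 ± 0.31, edgeR adjusted p = 0.00911). It belongs to the proximal tubule list, of which 1 of 30 passed (3.33%), 18 had positive estimates and the median was 0.13; the mean level of that list ran from -1.16 to 0.93 in db/db and from -0.72 to 1.34 in db/m. A tubule level was taken per library as the mean of the proximal tubule, loop and distal tubule, and collecting duct list levels. With it as a term in the fit, the estimate for Slc22a7 was -2.81 (edgeR adjusted p = 0.00179). The 3 list levels differed within libraries, at -1.16, 0.22 and 0.48 in db/db vehicle 1, and the proximal list holds Slc22a7 itself. This fit therefore does not test the proximal tubule content. Slc6a6, the taurine transporter, rose 1.5-fold (adjusted p = 0.047), Acer2, a ceramidase of the Golgi, rose 1.75-fold (adjusted p = 0.0181), and Hdc, which makes histamine, rose 2.42-fold (adjusted p = 0.0388). Enho, which encodes adropin, rose 1.6-fold (adjusted p = 0.0483) and shares exon positions with Dnaic1 on the other strand. Cyp4a14, a fatty acid hydroxylase driven by PPAR-alpha, was at 1.56 to 1.75 CPM in db/m and 1.94 to 35.4 CPM in db/db, with no overlap, and did not pass (log2 fold change 3.19 ± 0.61, adjusted p = 0.0533); members of its family have near-identical copies, so its level is uncertain. Of 34 fatty acid oxidation genes 0 passed and 30 had positive estimates (median 0.11), and of 21 sterol synthesis genes 0 passed and 18 had negative estimates (median -0.15), with their regulator Srebf2 at 61.2 to 69.5 CPM in db/db and 75 to 84.3 CPM in db/m (adjusted p = 0.0696). Positive estimates were also counted for 40 of 47 oxidative phosphorylation genes and 42 of 50 ribosomal protein genes, each with a median of 0.11 and 0 passing, where 7182 of 13734 genes were positive. The mean level of the oxidative phosphorylation list ran from -0.49 to 0.43 in db/db libraries and from -0.54 to 0.23 in db/m libraries, and the tubule level from -1.33 to 1.01 and from -0.91 to 0.34. Both levels were lowest in db/db puerarin S144 and db/m S185 and highest in db/db vehicle 3. When the fit included that tubule level, the oxidative phosphorylation median was 0.06 and the ribosomal protein median 0.09, and in the S-number libraries alone they were -0.02 and 0.05.

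Calls among immune genes are given beside the 0.444% of all genes that passed. Cd53, a tetraspanin of leukocytes, was at 18.8, 22.3, 16.9 and 15.4 CPM in db/m S184, S185, 2 and 3 and at 21.5 to 42.6 CPM (median 34.4) in db/db, 1.94-fold higher (edgeR adjusted p = 0.0433), with db/m S185 just above db/db vehicle 3. With the myeloid level as a term its adjusted p was 0.0645. Cd302, a lectin receptor of myeloid cells, rose 1.35-fold (adjusted p = 0.041). Ifi44, an interferon-induced gene, fell 1.77-fold, from 23.3 to 33.8 CPM to 10.1 to 19.7 CPM (adjusted p = 0.0194). It was the 1 passing gene of 31 interferon genes (3.23%), of which 21 had negative estimates. H2-Q5, a class I histocompatibility gene whose reads cannot be told from near-identical copies, fell 1.49-fold (adjusted p = 0.0226). Of 31 myeloid genes 0 passed, 29 had positive estimates and the median was 0.68. That median was -0.21 in the S-number and 1.91 in the group-tag libraries. Their mean level ran from -0.51 to 2.25 in db/db and from -1.07 to -0.07 in db/m. The complement gene C1qa was higher in each db/db library (3 to 93.3 CPM) than in each db/m library (0.988 to 2.24 CPM), and db/db vehicle 1 and 3 and puerarin 3 held the 3 highest values. It did not pass (edgeR adjusted p = 0.276). Of the 31 myeloid genes 3 were separated in this way, C1qa, C1qb and C1qc, where 1.23% of all genes were. The macrophage genes Lyz2 and Csf1r overlapped between the genotypes. Their log2 fold changes were -1.05 and -0.46 in the S-number libraries and 2.15 and 1.39 in the group-tag libraries. Cell-cycle genes had positive estimates in 24 of 28 (median 0.30) with 0 passing, and Cdk1 was at 1.17 to 4.06 CPM in db/db and 0.247 to 0.97 CPM in db/m (log2 fold change 1.99 ± 0.41, adjusted p = 0.0648). The mean level of the cell-cycle list lay between -0.15 and 0.47 in db/db and between -0.36 and -0.16 in db/m, without overlap.

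**Figure D3:**
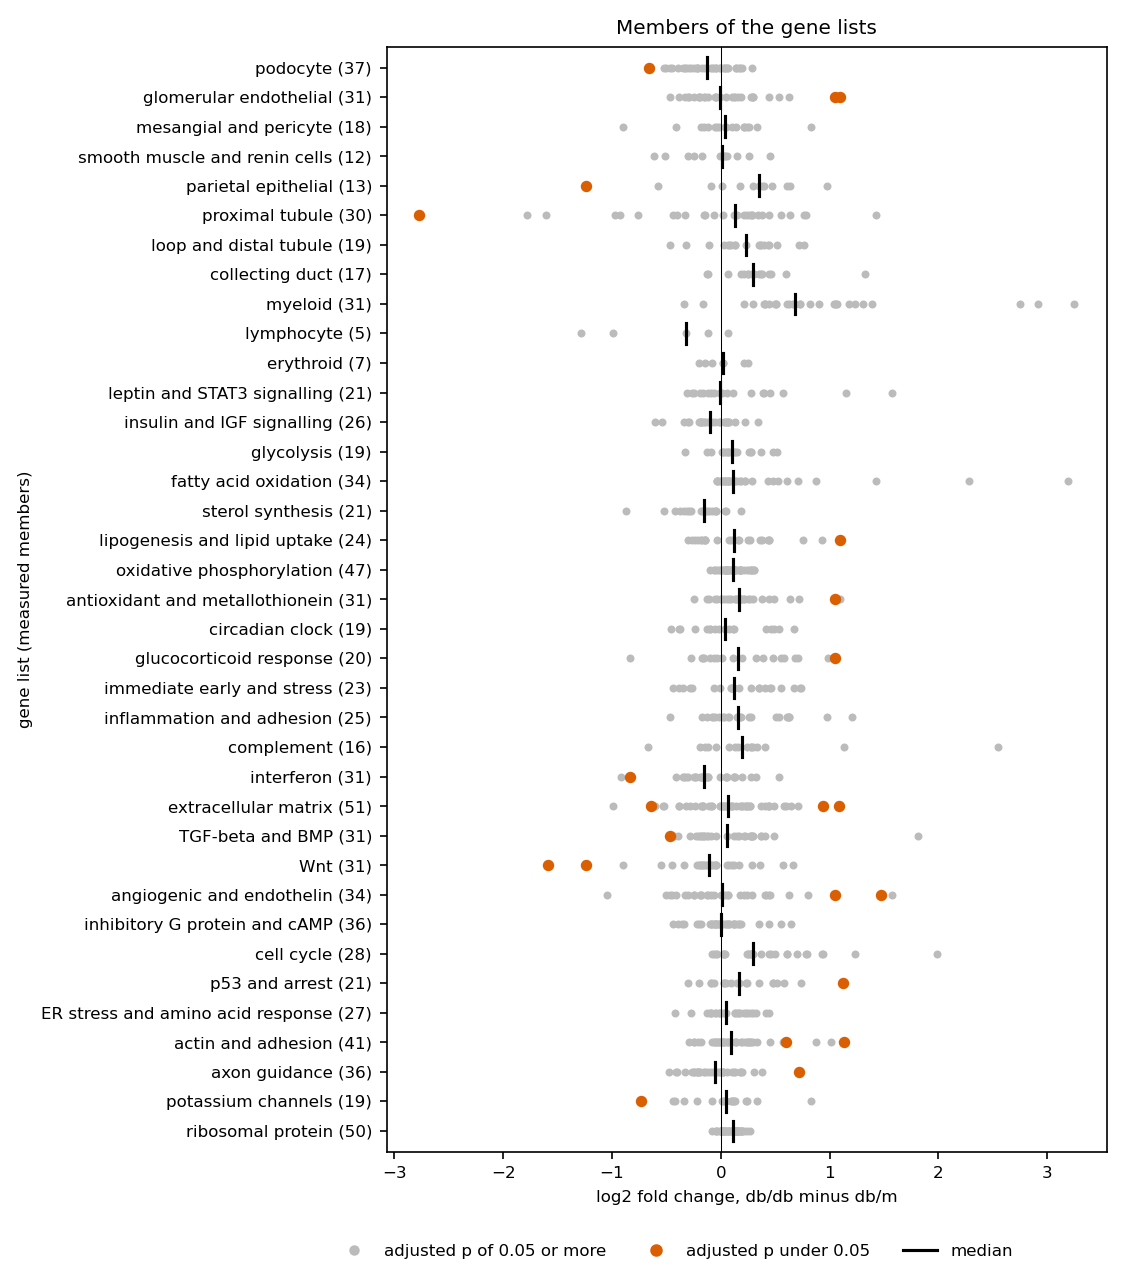
Log2 fold change of db/db over db/m (x axis) for each measured member of 37 gene lists (rows, with the number measured). Orange points passed, grey did not, and the black bar is the median; the myeloid median of 0.68 lies farthest from 0, none of its members passed, and in the S-number libraries alone it was -0.21.

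Among the other cell lists, 0 of 18 mesangial and pericyte, 12 smooth muscle and renin cell, 19 loop and distal tubule, 17 collecting duct, 5 lymphocyte and 7 erythroid genes passed. Of 13 parietal epithelial genes Dkk3 fell (7.69%, beside 0.444% of all genes) and the other 12 did not pass, while 10 of the 13 had positive estimates. Of the mesangial genes the nearest was Serpine2, a protease inhibitor, at 177 to 338 CPM in db/m and 294 to 686 CPM in db/db (adjusted p = 0.0533). The leptin and STAT3 list had 0 of 21 passing and a median of -0.01. Its gene with the smallest p was Lrg1, a secreted STAT3 target, at 4.04, 5.74, 7.31 and 10.1 CPM in db/m S184, S185, 2 and 3 and 11.1 to 30.4 CPM in db/db (log2 fold change 1.57 ± 0.33, edgeR adjusted p = 0.0696). Of 26 insulin and IGF genes 0 passed and 17 had negative estimates (median -0.10). Of 25 inflammation and adhesion genes 0 passed, with Sele, the endothelial E-selectin, at 6.98 to 16.1 CPM in db/db and 3.16 to 6.03 CPM in db/m (adjusted p = 0.0552).

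The remaining genes that rose were Man2a1, a Golgi mannosidase (1.63-fold), Spink8, a protease inhibitor (2.17-fold), Rnase4 (1.96-fold), which shares exons with Ang on its own strand, Neurl1b, a ubiquitin ligase (1.55-fold), Serp2 (2.02-fold), Pold4, a DNA polymerase subunit (1.47-fold), Cyp2s1, a cytochrome P450 (1.91-fold), Srgap3, a GTPase-activating protein (1.61-fold), Lrtm2 (2.14-fold), 4932441J04Rik (2.19-fold), 4933407E24Rik (3.54-fold) and D17H6S56E-5 (2.49-fold), a repeated locus whose reads are uncertain. The remaining genes that fell were Arl4d, a small GTPase (1.58-fold), Tuba8, a tubulin (2.11-fold), Fgfr4, a fibroblast growth factor receptor (1.31-fold), Acpp, an acid phosphatase (1.47-fold), Zbtb8a, a zinc finger protein (1.79-fold), and Gm853 (2.35-fold). Arvcf, Cacna2d2, Man2a1, Tuba8, Sox8, Cyp2s1, Mt2 and Srgap3 share exon positions with transcripts of the other strand, and Plxnc1 and Pold4 with one on their own strand, so some of their reads may belong there; the use of strand in the counting is not stated in the sources at hand. Of the 61 genes, 6 had overlapping groups: Ednrb, Col8a1, Zbtb8a, Cd302, Srgap3 and Cd53.

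**Figure D4:**
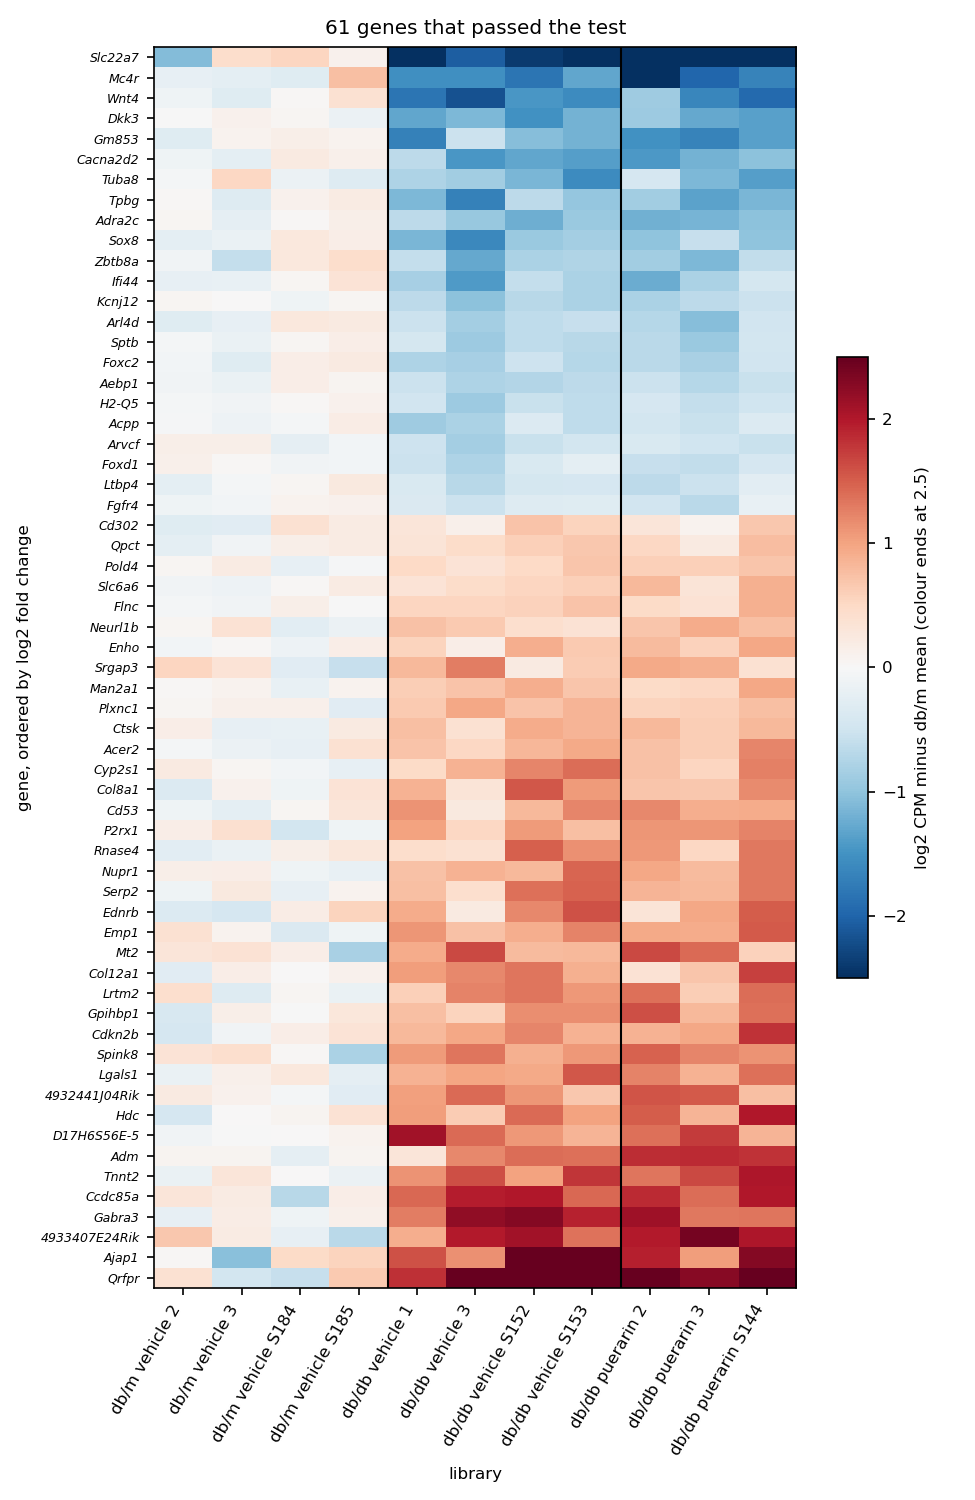
Log2 CPM of the 61 genes that passed (rows, ordered by log2 fold change) in each library (columns), as the difference from the db/m mean; colours end at 2.5. The 4 db/db vehicle and 3 db/db puerarin columns show the same blocks of lower and higher genes, and the rows were chosen for that difference.

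The pooling of the arms was tested as puerarin against vehicle within db/db. By edgeR 0 of 13734 genes differed (smallest adjusted p 0.526), 578 had an unadjusted p under 0.05, and DESeq2 called 15 (0.109%). Among the 61 genes the difference had a median size of 0.12 on the log2 scale, 4 had an unadjusted p under 0.05, and the smallest adjusted p was 0.967. These genes were chosen with the arms pooled, which favours genes whose arms are alike. Their arm differences are therefore no separate test of a shared effect. The largest arm difference among them was that of Adm, 0.75 higher under puerarin, followed by Qrfpr (0.70) and Slc22a7 (-0.66). The arms share their db/m controls, so their fold changes are given side by side only. Dkk3 had log2 estimates of -1.28 in the vehicle arm and -1.20 in the puerarin arm, Foxc2 -0.70 and -0.61, Wnt4 -1.75 and -1.38, Ajap1 2.05 and 1.94, Lgals1 1.09 and 1.19, Ednrb 1.02 and 1.09, Gpihbp1 0.90 and 1.35, and Mc4r -1.57 and -2.08. Of the 3 puerarin libraries, 2 were those with high Xist, so puerarin and that property cannot be told apart in most of the arm. Each arm was also set against db/m in a fit of all 11 libraries with the arms as separate groups. The vehicle arm gave 6 genes (0.0437%) and the puerarin arm 25 (0.182%), of which 5 and 17 were among the 61. Each of these contrasts compares fewer db/db libraries than the pooled one. The difference of the arms was not called for any gene by edgeR.

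The genotype effect was also compared between name forms, which share no library. Across 13734 genes the log2 fold changes of the 2 sets had a Pearson correlation of 0.22, which describes genes that are not independent. Of the 100 autosomal genes with the smallest p in the S-number libraries, 89 had the same sign in the group-tag libraries, against 57.7% of all genes, and their median fold change in that direction was 0.53 on the log2 scale after 1.26 in the set that ranked them. Of the 1255 genes at an unadjusted p under 0.05 in the S-number libraries 72.8% had the same sign, with a median of 0.18 after 0.55, and of the 14 genes called there 11 did, with a median of 0.34 after 2.83. This comparison was added after the data were seen. The S-number libraries alone gave 14 genes (0.102%), of which Slc22a7 and Cyp2s1 were among the 61, and the group-tag libraries alone 0 (1040 at an unadjusted p under 0.05, by edgeR). Within forms, the log2 fold changes of Dkk3 were -1.31 (S-number) and -1.20 (group-tag), of Slc22a7 -3.01 and -2.56, of Wnt4 -1.86 and -1.36, of Qrfpr 4.65 and 4.07, of Emp1 1.48 and 0.69, of Nupr1 1.37 and 0.69, and of Foxd1 -0.27 and -0.71.

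By the test of the difference itself, the genotype effect differed between forms for 4 genes (0.0291%; 651 at an unadjusted p under 0.05, and 28, or 0.204%, by DESeq2). None was among the 61, whose smallest adjusted p of this difference was 0.765. Of the 61, 7 had an unadjusted p under 0.05, beside 651 of all 13734 genes. The 61 were chosen in a fit with a common genotype effect for both forms, which favours genes alike in both. These values are therefore no separate test of a shared effect. Each of the 4 was low in the db/m libraries S184 and S185. Wdfy1, a phosphoinositide-binding protein, was at 14.3 and 14.2 CPM there and at 40.7 to 52.9 CPM in the other 9 libraries. Fndc5, the precursor of irisin, was at 17.1 and 18.4 CPM against 52.5 to 91.6 CPM, and Grik3, a kainate receptor subunit, at 0.229 and 0.158 CPM against 1.19 to 3.06 CPM. The gene Fkbp5, chosen after its values were seen, was at 33.4 and 39.8 CPM in the same 2 libraries and at 96.7 to 235 CPM in the others. The part of what sets S184 and S185 apart in the genotype effect was not tested.

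**Figure D5:**
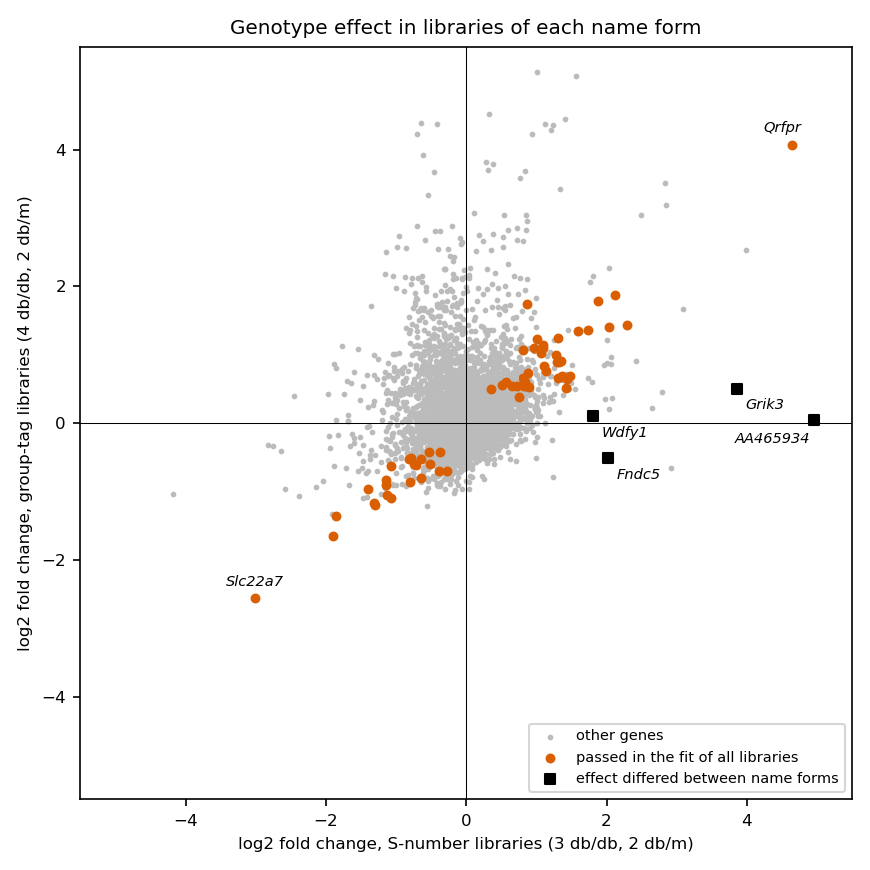
Log2 fold change of db/db over db/m in the S-number libraries (x axis) and in the group-tag libraries (y axis) for each gene, with 3 genes outside the axes. Orange points passed in the fit of all libraries, which contains both sets, and black squares are the 4 genes whose effect differed between forms, which lie right of 0 and near 0 on the y axis.

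Lepr itself (chr4:101717406-101815354, plus strand) was at 9.62, 11.3, 8.32 and 9.25 CPM in db/m S184, S185, 2 and 3 and at 5.07 to 11.1 CPM (median 7.93) in db/db, summed over 3 transcripts. The groups overlapped, and the mean difference of -0.29 in log2 CPM had an exact two-sided permutation p of 0.242 over 330 assignments, the smallest possible being 0.00303. The db allele changes splicing, which a gene total does not show, so this level does not check the labels. Of 219 genes within 20 Mb of Lepr, Acer2 and Cdkn2b passed (0.913%, beside 0.444% of all genes), and of 669 on the rest of chromosome 4 the 6 genes 4933407E24Rik, Ajap1, Enho, Gm853, Wnt4 and Zbtb8a did (0.897%). On chromosome 17, 7 of 681 genes passed (1.03%), which include H2-Q5 and D17H6S56E-5. Gnai1, the inhibitory G protein subunit named in the study's title, was at 51.2, 57.3, 48.1 and 52.8 CPM in db/m S184, S185, 2 and 3 and at 58.2 to 91.4 CPM (median 65.8) in db/db, above every db/m library, and did not pass (log2 fold change 0.44 ± 0.09, edgeR adjusted p = 0.0586). It was the gene with the smallest p among 36 genes of inhibitory G protein and cAMP signalling, of which 0 passed and 18 had positive estimates.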

How the data were processed

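Whole-number counts for 22320 RefSeq transcripts were deposited by the authors, with the log2 values, which equal the log2 of the counts plus a constant per library, used only for that check. RNA with an integrity value above 7.5 was sequenced, per the labels' protocols, which name 2 sequencing sites without assigning libraries. BWA, limma and mm10 are named without versions, per the submitters' processing notes. Of 15 count columns 4 matched no sample and were not used. Blank cells (13) counted as 0, 50 symbols turned into dates were restored by transcript identifier, and no mitochondrial transcript was listed. Counts were summed per symbol to 13734 genes, 4562 with several transcripts, where shared reads can count more than once.

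Genes needed a count of 1 in 3 libraries. edgeR 4.0.16 in R 4.3.3 (TMM factors, glmQLFit and glmQLFTest, genotype and name form as terms, two-sided, 8 residual degrees of freedom) was run on all 11 libraries, and p-values were adjusted over all genes with a threshold of 0.05. The script was tested on simulated data. DESeq2 1.42.0 and other settings were alternatives. Every pair of libraries in a group differed beyond counting noise. Since the labels do not tie libraries to animals, p-values measure only the spread between these libraries, possibly technical. Same-numbered libraries did not deviate together, with a correlation of 0.06. CPM used TMM-scaled totals, and list levels average the centred log2 CPM (prior count 2) of their members.

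The members and the 37 lists were chosen with earlier results of these data known. Named genes are the 14 higher and 14 lower autosomal genes with the smallest p and a mean of at least 1 CPM, the 3 passing members with the smallest p of each list (or the 1 nearest), Lepr and Gnai1, and 1 further gene of the rule is not reported here; others were chosen after their values were seen. Of 1013 list symbols 932 were measured. Exon overlaps came from GENCODE (mm10).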

Additional observations from a re-analysis of the deposited data

Results flagged for a closer look

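In groups of 4 or 7 libraries, 14 values stood apart from the rest of their group by Dixon's criterion, out of 178 groups examined over 84 genes and the lists; chance flags about 1 in 20 groups. Values are log2 CPM unless stated. In db/m, S184 was lowest for Ccdc85a (0.77) and Adm (4.51), S185 was highest for Mc4r (3.46) and lowest for Mt2 (3.78), and library 2 was lowest for Gm853 (1.44) and Cdk1 (-1.75). In db/db, puerarin S144 was highest for Cdkn2b (1.54), puerarin 2 was highest for Fosl2 (6.60), vehicle S153 was highest for Rpl12 (7.02), vehicle 1 was lowest for Adm (5.03) and Cyp4a14 (0.99), and vehicle 3 was lowest for Arvcf (10.27) and Cd53 (4.43). The mean level of the myeloid list was highest in db/db vehicle 1, at 2.25 against 0.50 for the next library.

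The genotype effect differed between name forms, by an interaction term in edgeR, for AA465934 (group-tag minus S-number -4.92 on the log2 scale, adjusted p = 0.000292), Fndc5 (-2.53, adjusted p = 0.000531), Grik3 (-3.35, adjusted p = 0.00622) and Wdfy1 (-1.71, adjusted p = 0.000531). Each had its 2 lowest values in the db/m libraries S184 and S185.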

How the results depend on the processing

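The 61 genes kept their direction in all 28 alternative fits, which share libraries with the fit that chose them. The count was 60 with RLE factors, 59 with upper-quartile factors, 61 with edgeR's filterByExpr or a mean of at least 1 CPM, 59 with the arms weighted equally and 74 with the highest transcript of each gene. It was 482 with DESeq2 (all 61 included), 21 without the name form term, 6 in the vehicle and 25 in the puerarin arm, 31 without db/db puerarin 2 and 3, 14 in the S-number and 0 in the group-tag libraries, 314 with the tubule level and 135 with the myeloid level as a term, and 0 without db/m S184 and S185, a setting chosen after seeing the data. Leaving out 1 library at a time gave 3 to 134 (3 without db/m S185 or 2, 19 without db/m S184 or 3, 25 without db/db vehicle S152, 26 without S153, 31 without db/db puerarin S144 or 3, 40 without puerarin 2, 134 without db/db vehicle 1); the cause was not tested. A replicate block over the numbered group-tag libraries gave 78 genes, 6 of them among the 61; the numbers pair samples in name only. Puerarin against vehicle gave 0 genes by edgeR and 15 by DESeq2, and the difference between forms 4 and 28. Separated genes numbered 329, 1174 without db/m S184 and S185, and 364 to 627 without 1 library. Of 219 genes within 20 Mb of Lepr 2 passed, where 0.444% of all genes did. The number near Lepr is given with the share of all genes that passed in the same setting. It was 12 by DESeq2 (3.51%), 8 with the tubule level (2.29%), 5 with the replicate block (0.568%) and 4 with the myeloid level (0.983%). It was 1 in the puerarin arm (0.182%) and in the S-number libraries (0.102%). None passed there without the name form term (0.153%), in the vehicle arm (0.0437%) or without db/db puerarin 2 and 3 (0.226%). The same held in the group-tag libraries and without db/m S184 and S185, where no gene passed at all. Without 1 library it was 0 to 3. Fndc5, at 0.53 over all libraries, was -0.51 in the group-tag libraries and with the replicate block and -0.50 without db/m S184 and S185. These settings are not separate checks, since each draws the genotype effect from the group-tag libraries. Leaving out S184 and S185 removes every S-number db/m library. The myeloid median of 0.68 was -0.21 in the S-number and 1.91 in the group-tag libraries. Tuba8 and Cdkn2b were among the genes that rest on the fewest reads.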
